A study of Mus musculus with 6 samples.

Results

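The genes described here are 38 genes of the unfolded protein response and of its ATF4 branch, read in C2C12 myotubes treated with corticosterone or vehicle. They were chosen by name, as the rows of the count table whose gene symbol is on a list of known pathway genes. The list was drawn up with earlier results of these data known. All 38 were found among the 46983 genes of the table. They comprise 8 sensors and transcription factors, 15 genes of protein folding and degradation at the endoplasmic reticulum (ER), 9 enzymes of amino acid and one-carbon metabolism, and 6 other targets of ATF4.

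C2C12 is a wild-type mouse muscle cell line whose myoblasts fuse into multinucleated myotubes. The cells had been differentiated for up to 7 days and were then exposed for 24 h to corticosterone, the main glucocorticoid of rodents, at 1e-07 M, or to ethanol vehicle at 1 µL/mL. Messenger RNA was sequenced from 3 cultures per treatment, which the labels call independent biological replicates. The libraries labelled corticosterone replicates 1 to 3 are called COR1, COR2 and COR3 below, and those labelled vehicle replicates 1 to 3 are called VEH1, VEH2 and VEH3.

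Proteins that fold in the ER are served by chaperones such as BiP and by disulfide isomerases. When unfolded proteins build up, the sensors IRE1, PERK and ATF6 act through XBP1 splicing, phosphorylation of the translation factor eIF2 and a cleaved ATF6 fragment. XBP1 and ATF6 mainly drive chaperone and degradation genes. Phosphorylated eIF2 favours translation of ATF4, which drives genes of amino acid supply, and ATF4 can be reached from amino acid shortage or mitochondrial stress without the ER sensors. XBP1 splicing, eIF2 phosphorylation, ATF6 cleavage and ATF4 protein are not read by a table of counts per gene.

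Glucocorticoid-induced genes went against 2 of the 6 labels, and every difference between labels below is read with that in view. Fkbp5, which encodes a co-chaperone of the glucocorticoid receptor, stood at 151, 36.9 and 135 CPM, which are counts adjusted for library size, in COR1, COR2 and COR3 and at 36.9, 177 and 35.3 CPM in VEH1, VEH2 and VEH3. Tsc22d3 and Per1, which glucocorticoids are also known to induce, were high in COR1, COR3 and VEH2 and low in COR2, VEH1 and VEH3 as well. The libraries held 23877583 to 29928653 counts. Mitochondrially encoded genes took a share of counts that ran from 2.39% to 2.53% in the libraries labelled corticosterone, and was 1.69%, 1.67% and 2.76% in VEH1, VEH2 and VEH3. The summed level of 7 myotube markers ran from 12185 to 13827 CPM under the corticosterone label, and was 7960, 9198 and 11848 CPM in VEH1, VEH2 and VEH3. The summed level of 3 fibroblast markers ran from 37.8 to 55.8 CPM under the corticosterone label and from 41.6 to 102 CPM under the vehicle label. The summed level of 4 markers of dividing cells did not overlap between labels, at 129 to 148 CPM under the corticosterone label and 166 to 179 CPM under the vehicle label. All 4 had a log2 difference below 0, edgeR called 0 and DESeq2 called 2, and the part of this in the values of Ddit3, Atf5 and Vldlr, which are also lower under the corticosterone label, was not tested. Of the 3 markers each of adipocytes, macrophages and endothelium, Adipoq, Plin1, Ptprc, Adgre1 and Kdr had 3 counts or fewer in every library. The others, Fabp4, Csf1r, Pecam1 and Cdh5, had more in at least 1 library. Summed over the markers of a type, the highest library reached 1.14 CPM for adipocytes, 0.479 for macrophages and 0.384 for endothelium. In such bulk libraries, fewer cells of a type and less RNA per cell cannot be told apart.

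The promoters of the 38 genes were searched for elements that the factors of each arm are known to bind, and 34 of the genes had an entry among 32851 RefSeq promoters of mouse build GRCm38.p6. Each entry runs from 250 bases before the start of transcription to 50 bases after it. The long ER stress element, which ATF6 binds together with the factor NF-Y, was searched on both strands as CCAAT and CCACG with 9 bases of any kind between them, and was held by 39 promoters (0.119% of all). Among the ER folding and degradation genes it was held by 5 of 13, namely Hspa5, Hsp90b1, Pdia6, Dnajc3 and Creld2, and among the ATF4 targets by 0 of 14. A short form, ATTGG and CCACG with any base between them, was held by 12 promoters (0.0365%), among them those of Herpud1 and Dnajb11. The element bound by XBP1 and ATF6, TGACGTGG, was held by 222 promoters (0.676%) and by none of the 34. The composite element bound by pairs of C/EBP and ATF proteins, searched as TGATGNAA, was held by 1304 promoters (3.97%). It was held by 6 of 14 ATF4 targets (Asns, Chac1, Nupr1, Pycr1, Trib3 and Vldlr) and by Atf3, and by 1 of 13 ER genes, Herpud1. The ER stress elements share CCACG, which TGACGTGG holds in reverse complement, so that the same bases could count for more than 1 of them. A match is a stretch of letters, with no measure of binding.

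Stretches that hold a match are given in the direction of transcription, with the match in capitals, for genes whose values are described below. Hspa5, Hsp90b1 and Creld2 carry the long ER stress element, of which Hsp90b1 has 2 copies, the second in reverse complement as in Creld2.
Hspa5, chr2:34772020-34772048, plus strand: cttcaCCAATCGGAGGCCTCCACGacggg
Hsp90b1, chr10:86705513-86705676, minus strand: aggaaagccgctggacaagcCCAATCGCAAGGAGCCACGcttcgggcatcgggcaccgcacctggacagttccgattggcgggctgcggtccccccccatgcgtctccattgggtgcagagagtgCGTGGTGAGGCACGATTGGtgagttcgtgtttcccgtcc
Creld2, chr15:88819500-88819558, plus strand: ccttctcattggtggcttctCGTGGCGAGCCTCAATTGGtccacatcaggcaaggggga
Herpud1 holds both kinds of match, the composite element first and the short ER stress element after it.
Herpud1, chr8:94386297-94386407, plus strand: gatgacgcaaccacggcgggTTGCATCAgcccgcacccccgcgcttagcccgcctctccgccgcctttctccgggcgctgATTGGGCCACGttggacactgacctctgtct
The other 4 carry the composite element, which reads TGATGNAA in Asns and, on the opposite strand, TTGCATCA in the others.
Asns, chr6:7693214-7693243, minus strand: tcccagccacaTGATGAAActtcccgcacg
Chac1, chr2:119351029-119351076, plus strand: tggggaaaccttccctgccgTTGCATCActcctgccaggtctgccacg
Nupr1, chr7:126625562-126625591, minus strand: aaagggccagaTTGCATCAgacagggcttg
Atf3, chr1:191183416-191183463, minus strand: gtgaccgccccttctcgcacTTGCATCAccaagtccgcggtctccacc
The stretches of Hspa5, Asns and Nupr1 are kept to at most 30 bases because they overlap an untranslated exon of some annotated transcript, and these 8 genes were picked for printing after their values were seen.

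By label, none of the 38 genes passed the test. All 38 passed the filter on low counts, and 0 passed an adjusted p of 0.05 in edgeR's quasi-likelihood test, which called 0% of the 14450 genes tested. DESeq2 called 137 genes (0.948%) and limma-voom called 0, and neither called a member. With COR1 or VEH3 left out edgeR called 0.201% or 0.0761% of all genes, again without a member. The smallest adjusted p among the members was 0.364 with edgeR, for Ddit3 and Vldlr, and 0.134 with DESeq2, for Vldlr. An unadjusted p under 0.05 was found for 3 members (7.89%), against 11.8% of all genes tested. Atf5, Ddit3 and Vldlr were those 3, and each was lower under the corticosterone label. The fitted log2 difference, labelled corticosterone minus labelled vehicle, was above 0 for 20 of the 38 (52.6%) and for 50.8% of all genes, with a median of 0.017 beside 0.004 over all genes. Scaling by total counts left 15 of 38 above 0 and moved their median to -0.031, with the median of all genes at -0.045.

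**Figure D1:**
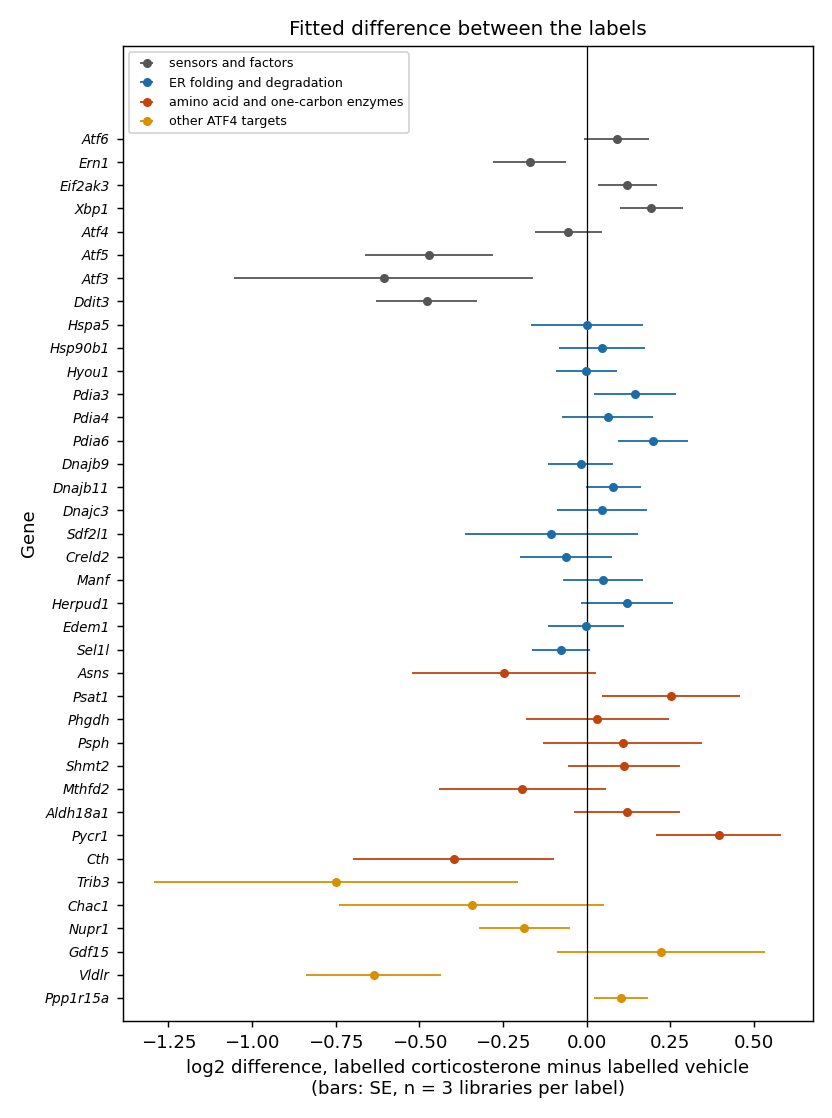
Fitted log2 difference (x axis, labelled corticosterone minus labelled vehicle) of each of the 38 genes (y axis), coloured by role, with bars of 1 standard error and 3 libraries per label. The points of the ER genes lie between -0.11 and 0.20, and those of Trib3, Vldlr, Atf3, Ddit3 and Atf5 lie farthest below it.

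Of the sensors and the factors they act through, Atf4 was the most abundant per length and Atf3 and Atf5 the most variable. Atf4, the factor that gives the branch its name (chromosome 15, 80255184 to 80257541), stood at 315, 312 and 302 CPM in COR1, COR2 and COR3 and at 313, 288 and 364 CPM in VEH1, VEH2 and VEH3. VEH3 was the highest library and VEH2 the lowest, so the labels overlapped, and the log2 difference was -0.055 ± 0.10 (SE, n = 3 per label, edgeR adjusted p = 0.839). Its mean level per length was 134 CPM per kilobase of exon, the highest of the 8. Xbp1, the factor activated by splicing through IRE1, stood next at 53.9 CPM per kilobase. Its levels were 167, 186 and 207 CPM under the corticosterone label and 168, 156 and 166 CPM under the vehicle label. COR2 and COR3 were above all vehicle-labelled libraries and COR1 was not, and the log2 difference was 0.19 ± 0.09 (edgeR adjusted p = 0.454).

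Ddit3 (chromosome 10, 127290774 to 127296288), which encodes the pro-apoptotic factor CHOP, was lower in all 3 libraries labelled corticosterone. It stood at 19.5, 20.2 and 17.98 CPM there and at 32.6, 21.7 and 26.1 CPM in VEH1, VEH2 and VEH3, means of 19.2 ± 1.13 and 26.8 ± 5.49 CPM (SD, n = 3 each). The labels did not overlap, with COR2 and VEH2 nearest to each other. The log2 difference was -0.48 ± 0.15 with an edgeR adjusted p of 0.364. It was -0.31 without VEH1 and -0.65 without COR2 and VEH2, and was called in none of these fits. Of the exon length of Ddit3, 3.97% overlaps Mars on the opposite strand, which had 23571 counts to its 3697, and reads of the 2 genes cannot be told apart there. Another annotated Ddit3 entry on the same strand, with no counts of its own given, overlaps 6.13% of that length. Ern1, which encodes the sensor IRE1 alpha, was the other gene without overlap, at 52.3, 52.9 and 41.0 CPM against 55.3, 53.0 and 56.4 CPM. COR2 and VEH2 were almost level and COR3 was the one library well below the others. Its log2 difference was -0.17 ± 0.11 (edgeR adjusted p = 0.551) and was -0.060 without COR3. These 2 genes without overlap between labels, both lower and none higher, compare with 8.21% of all genes lower and 8.4% higher, 16.6% in all.

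Atf5, an activating factor that is translated when eIF2 is phosphorylated, stood at 71.8, 63.7 and 47.2 CPM under the corticosterone label and at 97.2, 65.4 and 90.8 CPM under the vehicle label. VEH2 lay among the corticosterone-labelled libraries and COR3 was the lowest. The log2 difference was -0.47 ± 0.19 (edgeR adjusted p = 0.408). Of the exon length of Atf5, 4.11% overlaps Il4i1 on the opposite strand, which had 8806 counts to the 11684 of Atf5. Atf3, an early stress-induced factor, stood at 12.1, 3.76 and 3.81 CPM against 11.99, 8.65 and 9.34 CPM. COR2 and COR3 were lowest, while COR1 was the highest library of all, level with VEH1. Its log2 difference was -0.61 ± 0.45 (edgeR adjusted p = 0.6004) and -1.40 without COR1 (edgeR adjusted p = 0.0659). The sensor genes Atf6 and Eif2ak3, the latter encoding PERK, varied less, by 1.26 and 1.22 times from the lowest to the highest library, and had log2 differences of 0.09 and 0.12.

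**Figure D2:**
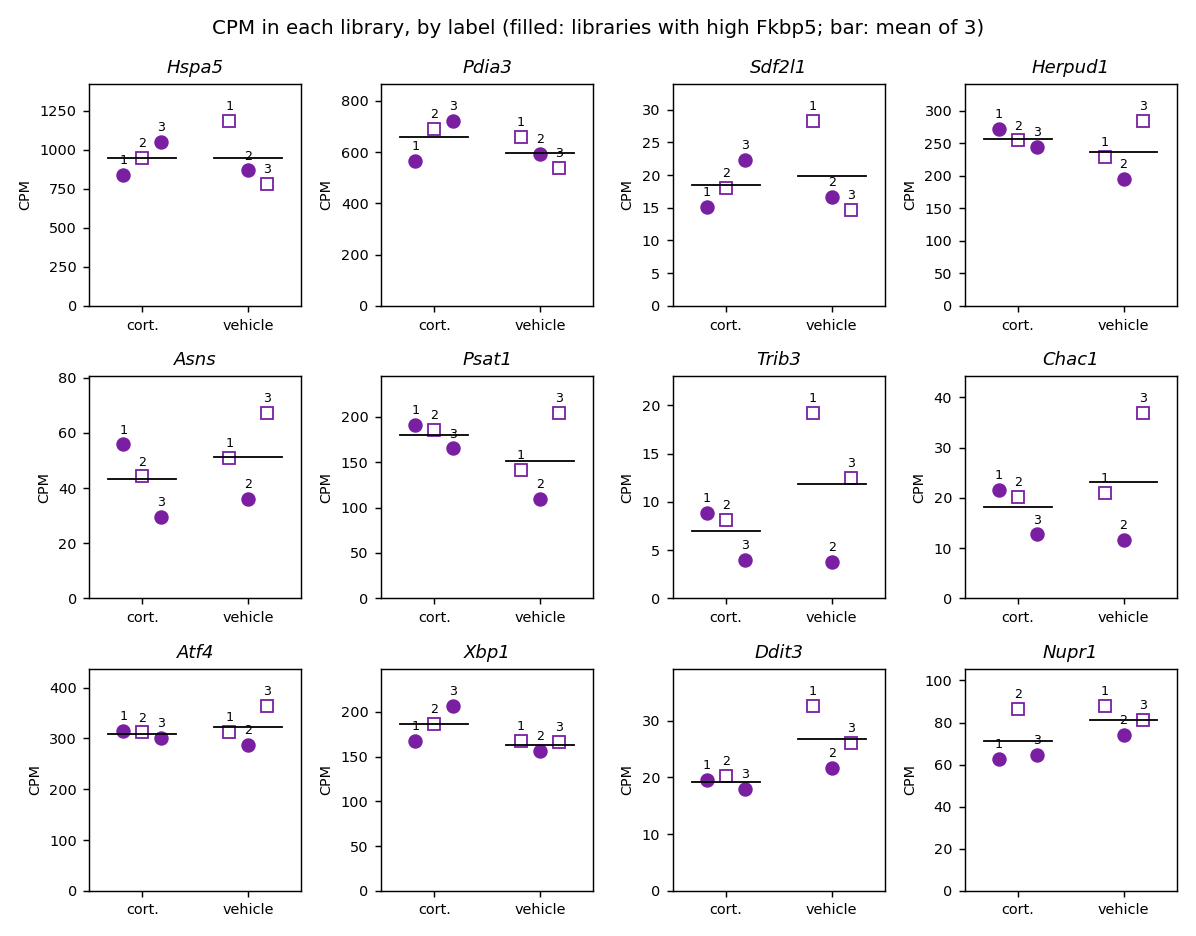
CPM (y axes, from 0) of 12 of the genes in each library by label (x axes), with the replicate number beside each point, filled circles for the libraries with high Fkbp5 (COR1, COR3 and VEH2), open squares for the others and a bar for the mean of 3. Points of Ddit3 do not overlap between labels, points of Nupr1 do not overlap between filled and open symbols, and VEH3 is lowest for Hspa5 but highest for Psat1.

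The ER folding and degradation genes varied by at most 1.92 times between libraries, and most of them were high and low in the same libraries, in an order that did not follow the labels. Hspa5 (chromosome 2, 34771970 to 34777547), which encodes BiP, the main ER chaperone of the Hsp70 family, was the most abundant per length, at 224 CPM per kilobase of exon. It stood at 842, 946 and 1051 CPM in COR1, COR2 and COR3 and at 1187, 868 and 781 CPM in VEH1, VEH2 and VEH3. The highest and the lowest library both carried the vehicle label. The means were 946 ± 105 and 945 ± 214 CPM (SD, n = 3 each), and the log2 difference was 0.0019 ± 0.17 (edgeR adjusted p = 0.997). Its sign turned with the scaling, at -0.0027 with the size factors of DESeq2 and -0.049 with total counts.

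Pdia3, a disulfide isomerase that works on glycoproteins, was next, at 200.3 CPM per kilobase. Its levels were 566, 692 and 723 CPM under the corticosterone label and 660.1, 594 and 537 CPM under the vehicle label. COR3 was highest and VEH3 lowest, the labels overlapped through COR1 and VEH1, and the log2 difference was 0.14 ± 0.12 (edgeR adjusted p = 0.649). Sdf2l1, a partner of BiP that keeps unfolded chains soluble, had the widest range of the 15, 1.92 times from lowest to highest. It stood at 15.1, 18.1 and 22.3 CPM against 28.3, 16.7 and 14.7 CPM. VEH1 was highest and VEH3 lowest, as for Hspa5, and the log2 difference was -0.11 ± 0.26 (edgeR adjusted p = 0.885).

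Other chaperone and folding genes had a shape like that of Hspa5. Hsp90b1, which encodes the ER chaperone GRP94, stood at 406, 467 and 467 CPM against 509.8, 413 and 375 CPM. Creld2, which encodes an ER protein induced by ER stress, stood at 41.4, 49.0 and 49.2 CPM against 58.5, 44.6 and 42.6 CPM. Pdia6, another isomerase, stood at 365, 429 and 460.0 CPM against 385, 364 and 345 CPM, and had the largest log2 difference of the group in size, 0.20 ± 0.10 (edgeR adjusted p = 0.484). In all 3 genes COR1 was the lowest of the corticosterone-labelled libraries, and VEH1 was the highest and VEH3 the lowest of the vehicle-labelled ones. These genes hold the long ER stress element in their promoters, as Hspa5 does. Pdia3, Pdia4, Sdf2l1, Dnajb9 and Edem1 had the same order at these points, and their promoters hold no match to it. Dnajc3, which also holds the long element, had that order too. So did Dnajb11, which holds the short form, and Manf, which had no promoter entry. A link between the element and the order of libraries was not tested. Hyou1, Pdia4, Dnajb9, Dnajb11, Dnajc3 and Manf, which encode other chaperones, isomerases and co-chaperones or a secreted survival factor, had log2 differences between -0.018 and 0.08.

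Over the 15 ER genes, VEH1 was the highest library for 8 and COR3 for 6, where 19.3% of all genes were highest in VEH1 and 19.3% in COR3. VEH3 was the lowest library for 9 of the 15, against 14.3% of all genes. The median gene stood 0.15 above its mean over the 6 libraries in VEH1 on the log2 scale, 0.11 above in COR3 and 0.05 above in COR2. In COR1, VEH2 and VEH3 it stood 0.12, 0.08 and 0.17 below. The fitted log2 difference by label was above 0 for 9 genes and below 0 for 6, with a median of 0.046. This median was -0.0039 with total-count scaling, and ran from -0.053 without VEH3 to 0.12 without VEH1.

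The degradation genes within this group were not all alike. Herpud1 (chromosome 8, 94386438 to 94395377), a membrane protein of the ER degradation complex, stood at 272, 255 and 245 CPM in COR1, COR2 and COR3 and at 229.8, 195 and 285 CPM in VEH1, VEH2 and VEH3. It was highest in VEH3 and lowest in VEH2, and was the one gene of the 15 for which VEH3 was highest. Its log2 difference was 0.12 ± 0.14 (edgeR adjusted p = 0.726). Its promoter is also the one among the 13 ER genes searched with a composite C/EBP-ATF match, shown above. Of the other genes with that match, Asns and Chac1 were highest in VEH3, and Nupr1, Trib3 and Vldlr in VEH1. Pycr1 was highest in COR2 and Atf3 in COR1, and a link between the match and the order of libraries was not tested. Edem1, which hands misfolded glycoproteins to degradation, and Sel1l, a scaffold of the degradation complex, had log2 differences of -0.0017 and -0.08 and were highest in VEH1.

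**Figure D3:**
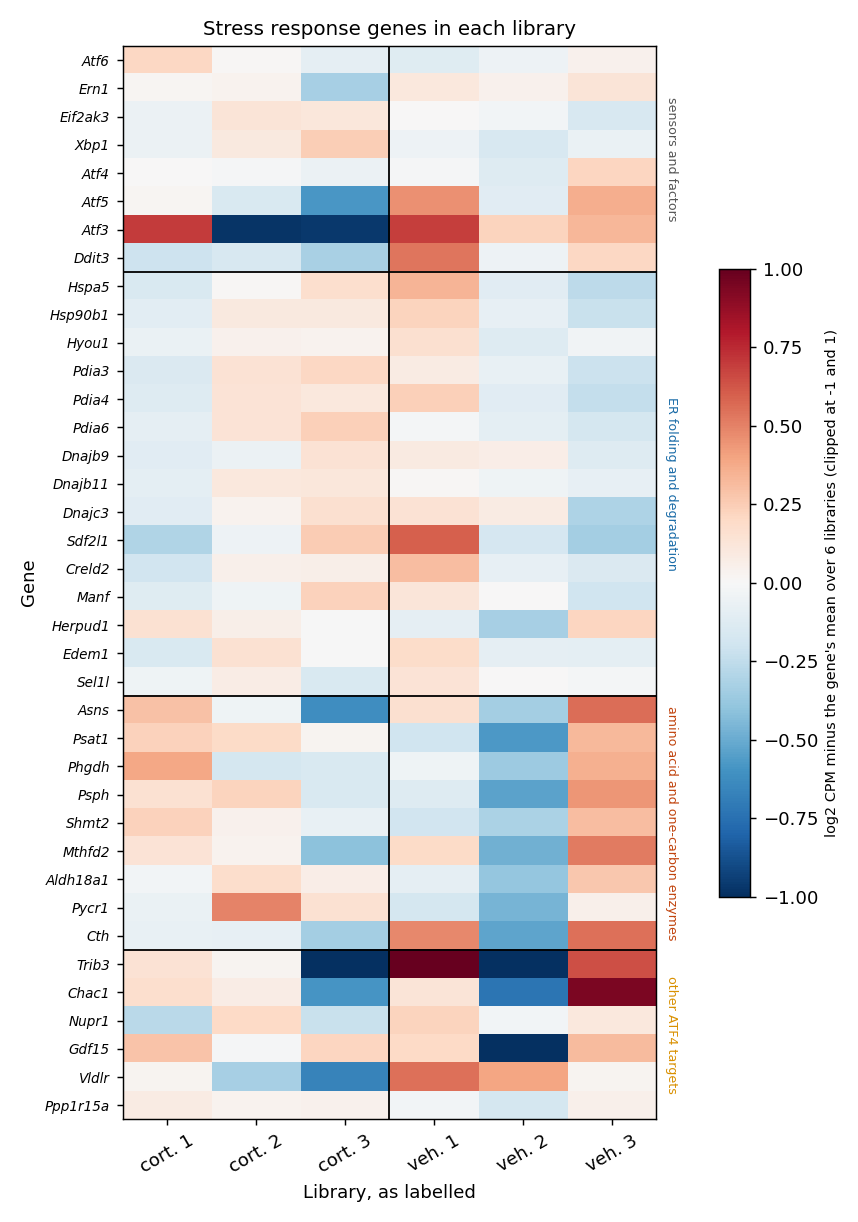
Log2 CPM of each of the 38 genes (rows, by role) in each library (columns, as labelled), as the difference from the gene's mean over the 6 libraries, clipped at -1 and 1. Most ER rows are pale, warm in VEH1 and cool in VEH3, with Herpud1 the reverse, and the enzyme rows are cool in VEH2 and mostly warm in VEH3.

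The enzymes of amino acid and one-carbon metabolism, which ATF4 is known to induce, followed another order of libraries. Psat1 (chromosome 19, 15904678 to 15947337), an enzyme of serine synthesis, was the most abundant per length, at 39.0 CPM per kilobase. It stood at 191, 186 and 165 CPM under the corticosterone label and at 141, 109 and 204 CPM under the vehicle label. VEH3 was highest and VEH2 lowest, so the vehicle-labelled libraries enclosed all the corticosterone-labelled ones, and the log2 difference was 0.25 ± 0.21 (edgeR adjusted p = 0.638). It was 0.52 without VEH3 (edgeR adjusted p = 0.115) and 0.063 without VEH2. Shmt2, which passes the carbon of serine to mitochondrial folate, stood next at 33.4 CPM per kilobase, with 121, 106 and 97.5 CPM against 90.0, 82.5 and 127 CPM. The order was that of Psat1 at both ends, and the log2 difference was 0.11 ± 0.17 (edgeR adjusted p = 0.799).

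Asns, which encodes asparagine synthetase and is a classic ATF4 target, had the widest range of the enzymes, 2.27 times. It stood at 55.8, 44.2 and 29.6 CPM in COR1, COR2 and COR3 and at 50.9, 36.0 and 67.1 CPM in VEH1, VEH2 and VEH3. VEH3 was highest and COR3, not VEH2, was lowest. The log2 difference was -0.25 ± 0.28 (edgeR adjusted p = 0.722). Cth, which makes cysteine from cystathionine, was the least abundant member, at 2.79, 2.77 and 2.32 CPM against 4.10, 2.03 and 4.30 CPM. VEH2 was lowest, VEH1 and VEH3 were highest, and the log2 difference was -0.40 ± 0.30 (edgeR adjusted p = 0.608).

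Phgdh, the first enzyme of serine synthesis, stood at 96.8, 65.7 and 67.0 CPM against 72.0, 57.6 and 95.1 CPM, with COR1 and VEH3 high and nearly level. Mthfd2, a mitochondrial folate enzyme, stood at 55.1, 51.5 and 37.7 CPM against 57.3, 36.0 and 71.8 CPM. Pycr1, an enzyme of proline synthesis, differed in shape, with COR2 highest, and had the largest positive log2 difference of the 38 genes at 0.39 ± 0.19 (edgeR adjusted p = 0.445). Aldh18a1, which starts proline synthesis from glutamate, and Psph, which completes serine synthesis, were highest in VEH3 and lowest in VEH2. Psph is uncertain, since 10.44% of its exon length overlaps Cct6a, which lies on the opposite strand and had 44588 counts to the 3082 of Psph.

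Of the 9 enzymes, 8 were lowest in VEH2 and 7 were highest in VEH3, where 14.7% and 14.5% of all genes were. The summed level of the 9 was 610.1, 559 and 489 CPM under the corticosterone label and 497, 389 and 676 CPM under the vehicle label. The vehicle-labelled libraries therefore spanned the whole range. The myotube markers and the mitochondrially encoded share were lower in VEH1 and VEH2 than in VEH3 too, and their part in this was not tested. The median log2 difference of the enzymes was 0.11, with 6 above 0 and 3 below, and it was -0.10 without VEH2.

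The 6 other ATF4 targets varied most. Trib3 (chromosome 2, 152337422 to 152344032), a pseudokinase that holds back ATF4 and AKT, had the widest range of all 38 genes, 5.06 times. It stood at 8.83, 8.15 and 4.004 CPM in COR1, COR2 and COR3 and at 19.2, 3.79 and 12.5 CPM in VEH1, VEH2 and VEH3. COR3 and VEH2 were low and VEH1 high, so the labels overlapped, and the log2 difference was -0.75 ± 0.54 (edgeR adjusted p = 0.597). That value was -0.21 without VEH1 and -1.18 without VEH2.

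Chac1 (chromosome 2, 119351229 to 119354381), which degrades glutathione, ranged over 3.19 times, at 21.6, 20.2 and 12.7 CPM against 21.0, 11.6 and 36.9 CPM. VEH3 was highest, VEH2 and COR3 lowest, and the other 3 libraries lay together. The log2 difference was -0.34 ± 0.39 (edgeR adjusted p = 0.730) and turned to 0.16 without VEH3. Gdf15, a stress hormone that muscle can secrete, stood at 11.9, 9.69 and 11.3 CPM against 11.2, 4.89 and 12.1 CPM. VEH2 was low and the other 5 libraries were close together.

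Vldlr, a lipoprotein receptor induced through PERK and ATF4, had the lowest mean per length of these 6 genes, 1.83 CPM per kilobase. It stood at 18.1, 14.1 and 11.1 CPM under the corticosterone label and at 26.0, 23.4 and 18.1 CPM under the vehicle label. COR1 and VEH3 were level to 3 digits, COR1 being the higher, and the other libraries did not overlap by label. The log2 difference was -0.64 ± 0.20, with an adjusted p of 0.364 in edgeR and 0.134 in DESeq2. Over the fits that left out libraries it ran from -0.48 without COR3 to -0.83 without COR1. Ppp1r15a, which encodes the phosphatase subunit GADD34 that ends the eIF2 signal, was the steadiest, at 49.0, 47.5 and 47.7 CPM against 45.4, 41.1 and 47.9 CPM, and its log2 difference was 0.10 ± 0.08 (edgeR adjusted p = 0.621). VEH2 was its lowest library, as for Trib3, Chac1 and Gdf15.

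Over all 15 ATF4 targets, enzymes included, VEH2 was the lowest library for 12 and VEH3 the highest for 9, against 14.7% and 14.5% of all genes. The ATF4 targets and the ER genes lay on opposite sides of their means in COR1, COR3 and VEH3, and on the same side in COR2, VEH1 and VEH2. In VEH1 the ATF4 targets were split, with the median enzyme 0.09 below its mean and the median of the 6 other targets 0.21 above. The ATF4 targets had a median 0.33 above their mean over libraries in VEH3 and 0.46 below it in VEH2, beside 0.17 below and 0.08 below for the ER genes. These counts by library were the same with the size factors of DESeq2, and with total-count scaling the ER genes were highest in VEH1 for 10 and lowest in VEH3 for 8. By label, 8 of the 15 had a log2 difference above 0 and 7 below, with a median of 0.032. That median was -0.0134 with total-count scaling, and ran from -0.13 without VEH2 to 0.16 without VEH3.

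**Figure D4:**
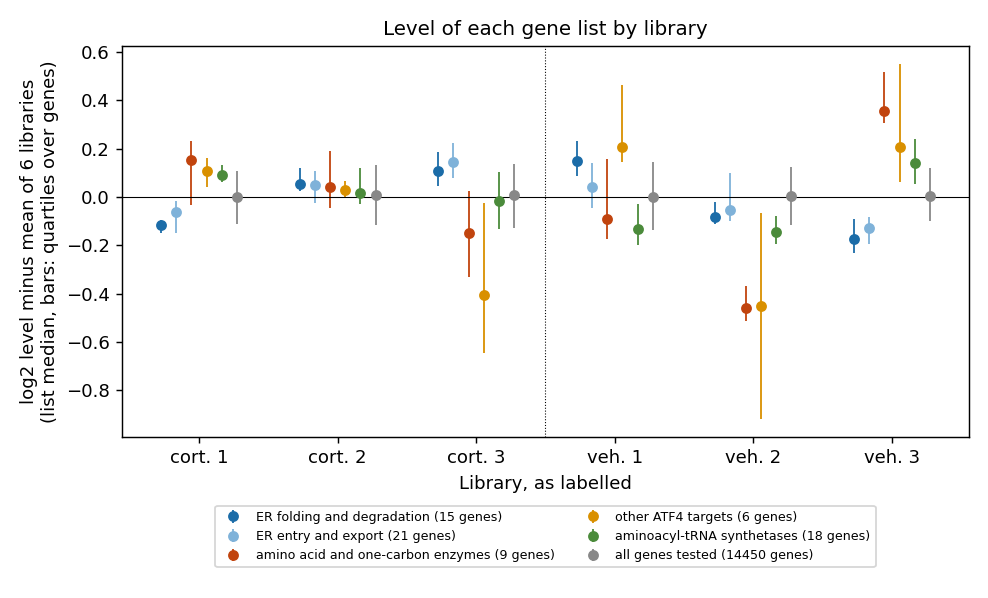
Median log2 level of 5 gene lists and of all genes tested in each library, as the difference from each gene's mean over the 6 libraries (y axis), with bars from the lower to the upper quartile of the genes, by library as labelled (x axis). The ER lists and the lists of amino acid genes lie on opposite sides of 0 in COR1, COR3, VEH1 and VEH3. All genes stay near 0, and in VEH1 the other ATF4 targets lie above 0 with the ER lists.

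The libraries with high Fkbp5 were also set against those with low Fkbp5, that is COR1, COR3 and VEH2 against COR2, VEH1 and VEH3. This arrangement rests on measured levels and not on labels, so it is a description of single libraries, with no mean and no test. Of the 38 genes, 1 did not overlap in it, against 9.63% of all genes tested. That gene was Nupr1 (chromosome 7, 126623249 to 126630861), a small stress-induced chromatin protein, with a mean of 30.3 CPM per kilobase of exon. It stood at 62.6, 64.7 and 74.1 CPM in COR1, COR3 and VEH2 and at 86.5, 88.0 and 81.2 CPM in COR2, VEH1 and VEH3. By label it overlapped, with a log2 difference of -0.19 ± 0.14 (edgeR adjusted p = 0.599).

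None of the 15 ER genes was separated by this arrangement. Hspa5 stood at 842, 1051 and 868 CPM in COR1, COR3 and VEH2 and at 946, 1187 and 781 CPM in COR2, VEH1 and VEH3, so that the low-Fkbp5 libraries held both extremes. Among the ATF4 targets Cth came close to separation, at 2.79, 2.32 and 2.03 CPM against 2.77, 4.10 and 4.30 CPM, with COR1 just above COR2. In Asns, at 55.8, 29.6 and 36.0 CPM against 44.2, 50.9 and 67.1 CPM, COR1 was the one library out of order, above COR2 and VEH1. Trib3 was out of order by COR1 and COR2, at 8.83, 4.004 and 3.79 CPM against 8.15, 19.2 and 12.5 CPM. For Chac1, at 21.6, 12.7 and 11.6 CPM against 20.2, 21.0 and 36.9 CPM, COR1 again lay among the low-Fkbp5 libraries. COR3 and VEH2 were below COR2, VEH1 and VEH3 in Asns, Trib3 and Chac1, while COR1 was not. The same held for Cth, Mthfd2 and Psph. Of the 15 ATF4 targets, those named here were set out after their values were seen. How many of all genes have that order was not counted.

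Other genes of the same pathways, taken from lists of known pathway genes, were read in the same fit, and edgeR called none of them. Among 20 further ER chaperones and disulfide enzymes, 12 had a log2 difference above 0, with a median of 0.11. Their smallest p belonged to Cdnf, a relative of Manf, with a log2 difference of -0.53 (edgeR adjusted p = 0.364), and to Creld1, a relative of Creld2, with 0.28. Of the 20, 10 were lowest in VEH3, beside 14.3% of all genes, 7 were highest in COR2 and 3 in VEH1, where 0 and 8 of the 15 ER members were. Among 16 further genes of ER-associated degradation, 12 were above 0. Vcp, the ATPase that pulls substrates from the membrane, stood at 696, 675 and 683 CPM against 509, 562 and 638 CPM, with no overlap and a log2 difference of 0.26 (edgeR adjusted p = 0.389). Edem3, a mannosidase of the same pathway, had a log2 difference of 0.19 (edgeR adjusted p = 0.395).

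Among the 21 genes of ER entry and export, 1 was called by DESeq2. Sec24d, a coat protein of vesicles that leave the ER, stood at 141, 183 and 196 CPM under the corticosterone label and at 114, 123 and 119.9 CPM under the vehicle label. The labels did not overlap, and the log2 difference was 0.54 ± 0.12, with an adjusted p of 0.364 in edgeR and 0.0234 in DESeq2. Sec31a, of the same coat, had a log2 difference of 0.32 (edgeR adjusted p = 0.364). Of the 21 genes, 13 were above 0, 6 were higher without overlap and 1 was lower without overlap. Over all genes, 8.4% were higher and 8.21% lower without overlap, and DESeq2 called 0.948%. With total-count scaling the counts were 4 and 2 of the 21, beside 793 and 1704 of the 14450 genes.

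Lists on the ATF4 side were read as well. Of 18 aminoacyl-tRNA synthetases, which load amino acids onto tRNA and of which many are ATF4 targets, 10 were highest in VEH3, beside 14.5% of all genes, and 6 each were lowest in VEH1 and VEH2. The median synthetase stood 0.13 below its mean over libraries in VEH1, where the median ATF4 target stood 0.13 above. Within the ATF4 targets, the median enzyme stood 0.09 below in VEH1, as the synthetases did, and the median of the 6 other targets 0.21 above. Of the 18, 13 had a log2 difference above 0, with a median of 0.09. Rars was higher under the corticosterone label without overlap, by 0.16, and Wars had a log2 difference of -0.21, with 1 library out of order. Of 9 amino acid transporters tested, 5 were highest in VEH3, 3 were lowest in VEH2 and 5 were above 0, and Slc7a6, a carrier of basic amino acids, was higher under the corticosterone label without overlap, by 0.23. Slc7a11, Slc3a2 and Slc1a5 were lower in COR1, COR3 and VEH2 than in the other 3 libraries without overlap, that is 3 of 9 beside 4.74% of all genes lower in that arrangement. Slc7a11, the cystine carrier, stood at 3.84, 5.06 and 5.86 CPM in COR1, COR3 and VEH2 and at 8.04, 10.4 and 10.1 CPM in COR2, VEH1 and VEH3. Its partner chain Slc3a2 stood at 136, 117 and 125 CPM against 139, 152 and 158 CPM.

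Of 24 other regulators of the stress response, 12 were above 0 and 12 below. Tnfrsf10b, a death receptor that CHOP is known to induce, was higher by 0.55 under the corticosterone label (edgeR adjusted p = 0.364), without overlap, while Ddit3 itself was lower there. Mbtps2, the protease that frees ATF6, had a log2 difference of -0.42 (edgeR adjusted p = 0.364), without overlap. Fgf21, a secreted hormone and ATF4 target, was picked out after its values were seen. It stood at 41.1, 46.7 and 39.0 CPM against 15.4, 8.75 and 61.0 CPM. VEH2 was lowest and VEH3 highest, as for the enzymes, and its range of 6.97 times was wider than that of any of the 38 genes.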

How the data were processed

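The values the authors deposited are raw counts, in 1 table whose 6 columns were mapped to samples by name. Build mm10, HISAT2 2.0.5, DESeq2 1.24.0 and HTSeq 0.6.1 are listed in the submitters' processing notes. Annotation release, strand setting and multi-mapping rule were not given in the sources used here, so reads of overlapping genes cannot be told apart. Counts were used as deposited. Coordinates and exon lengths came from GENCODE M21 (GRCm38).

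Labels were compared with edgeR 4.0.16 (quasi-likelihood F-test, TMM scaling, filterByExpr, two-sided) in R 4.3.3. Benjamini-Hochberg adjustment was over the 14450 genes tested and the threshold was 0.05. Standard errors were derived from the F statistic. CPM are TMM-scaled. Levels relative to the mean over libraries used log2(CPM + 0.1). A count of 3, taken as the floor, was worth 0.1002 to 0.1256 CPM. Alternatives were DESeq2 1.42.0, limma-voom (limma 3.58.1), RLE and total-count scaling, no filter, a mean of at least 5 CPM, a replicate block, and libraries left out. The script was tested on simulated data.

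The members and lists were chosen with earlier results of these data known. Values per library were given for members called or without overlap, and in each role group for the 2 highest per length and the 2 with the widest range. Of other lists, the 2 genes with the smallest p were named, some with their log2 difference alone. A few further genes were described, chosen after their values were seen. No list was tested as a set.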

Additional observations from a re-analysis of the deposited data

How the results depend on the processing

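The 38 members had 0 calls in every fit run. Over all genes, DESeq2 called 137, edgeR without both libraries numbered 2 called 3, and edgeR with 1 library left out called from 0 to 29, with 29 without COR1 and 11 without VEH3. With 3 libraries per label, and levels of glucocorticoid-induced genes at odds with 2 labels, a difference between treatments cannot be told apart from the placing of those libraries. The counts without overlap were 2 and 1 with RLE scaling, and 3 and 1 with total-count scaling, which added Vldlr.

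Same-numbered libraries did not deviate together from their label means (correlations -0.153, -0.266 and -0.325). Across differing numbers the correlations ran from -0.0733 for COR1 and VEH2 to 0.385 for COR3 and VEH2. They were 0.169 for COR1 and VEH3 and 0.153 for COR2 and VEH1. COR2 and VEH2 depart from their labels in opposite directions in glucocorticoid-induced genes, so these values cannot settle whether cultures were paired. With each gene centred over all libraries, the only positive correlations were 0.352 for VEH1 and VEH2, 0.236 for COR1 and VEH3, and 0.217 for COR2 and COR3. What these libraries share was not tested. The replicate block called 0 genes, gave medians of 0.046 for the ER genes and 0.039 for the ATF4 targets, and turned the sign of Hyou1 to 0.0037. Signs of log2 differences that were not called turned as follows, and the cause was not tested. Hspa5 was at -0.0027 with DESeq2 and with RLE scaling and at -0.003 with no filter. Hyou1 was at 0.0034 with limma-voom and 0.0009 with a mean of at least 5 CPM. With total-count scaling Hspa5 was at -0.0487, Hsp90b1 at -0.0028, Dnajc3 at -0.0039, Manf at -0.0009 and Phgdh at -0.0134. Without both libraries numbered 2, the medians were -0.018 for the ER genes and -0.17 for the ATF4 targets, with Hspa5 at -0.0561, Hsp90b1 at -0.0178, Pdia4 at -0.0302, Dnajb9 at 0.0343, Phgdh at -0.0274, Psph at -0.1716, Aldh18a1 at -0.0823 and Gdf15 at -0.0108.

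With 1 library left out, the log2 difference ran from -0.1307 to 0.0377 for Atf4, from -0.1252 to 0.1974 for Hspa5, from -0.053 to 0.1811 for Hsp90b1, from -0.0657 to 0.0831 for Hyou1 and from -0.0397 to 0.2126 for Pdia4. It ran from -0.0993 to 0.0325 for Dnajb9, from -0.0885 to 0.1325 for Dnajc3, from -0.287 to 0.2349 for Sdf2l1, from -0.1547 to 0.091 for Creld2 and from -0.0624 to 0.1213 for Manf. The range was -0.0014 to 0.2705 for Herpud1 and -0.0815 to 0.0957 for Edem1. Among the ATF4 targets it was -0.1741 to 0.2345 for Phgdh, -0.0971 to 0.3999 for Psph, -0.0083 to 0.3181 for Shmt2, -0.4252 to 0.0391 for Mthfd2, -0.0272 to 0.2989 for Aldh18a1, -0.6684 to 0.1566 for Chac1 and -0.0934 to 0.4418 for Gdf15. The other 19 members kept their sign in all 6 of these fits.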

Other observations

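The cytosolic heat shock genes, which answer to unfolded protein outside the ER, were read beside the ER genes and showed another order of libraries. Of 13 genes tested, edgeR called 0 (DESeq2 0), 3 had an unadjusted p under 0.05, and 11 had a log2 difference above 0, with a median of 0.13. Hspa8, the constitutive Hsp70, stood at 1284, 1215 and 1454 CPM in COR1, COR2 and COR3 and at 1131, 1199.9 and 1141 CPM in VEH1, VEH2 and VEH3. Bag3, a co-chaperone of muscle, stood at 144, 135 and 148 CPM against 116, 117 and 129 CPM, with a log2 difference of 0.23 ± 0.08 (edgeR adjusted p = 0.364), and Hsph1, an exchange factor for Hsp70, differed by 0.22 (edgeR adjusted p = 0.386). Of the 13, 6 were higher under the corticosterone label without overlap, beside 8.4% of all genes. This count was 4 with RLE scaling, beside 1172 of the 14450 genes, and 1 with total-count scaling, beside 793 of them. The median was 0.22 without COR2 and VEH2, and VEH1, the highest library for 8 of the 15 ER genes, was the lowest for 7 of the 13, beside 20.5% of all genes.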
